A study of Mus musculus with 12 samples.

Results

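The 38 Hox genes listed for this account were the members of the Hox A, B, C and D clusters, matched by symbol to 38 of the 43629 gene identifiers counted in 12 mouse RNA sequencing libraries. They were chosen by the measured level of Hoxa10, which had persisted in sorted, reprogrammed fibroblasts and was absent from adult cardiomyocytes, and the levels of Hoxa10 are given as a description with no test. Mouse embryonic fibroblasts of the C57BL/6 strain had carried an empty vector (E), a vector set with Gata4, Hand2, Mef2c and Tbx5 (GHMT), or that set with Akt (AGHMT) for 3 weeks, and ventricular cardiomyocytes isolated from adult C57BL/6 mice (CM) were the reference, with 3 libraries per group. By the labels, GHMT and AGHMT cells were sorted on green fluorescent protein under the promoter of Myh6, the alpha myosin heavy chain gene, and no sort is named for E or CM. The sort and the factors therefore cannot be told apart in any comparison with E, and the labels do not say from which part of the embryo the fibroblasts came. No label says whether the libraries of a group came from separate cultures or animals, so p-values measure the spread among these libraries, which may be technical. In bulk RNA, fewer cells of a type and less RNA per cell cannot be told apart.

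Hox genes encode homeodomain transcription factors that lie in clusters, and their order along a cluster follows the order in which they are used along the body axis. Low-numbered paralog groups act toward the head end, high-numbered groups act toward the tail end and, in clusters A and D, in the distal limb. Adult fibroblasts keep a Hox pattern that records the body site they came from, a record called positional memory, while the heart forms from anterior mesoderm in which only low-numbered Hox genes are used near its inflow end. Hox proteins bind DNA with partner homeodomain proteins of the Pbx, Meis and Pknox (TALE) family, and their clusters are held open or closed by Trithorax and Polycomb proteins.

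By the GENCODE M21 annotation of mm10, cluster A spans chr6:52162417-52260880 with 10 of the genes, cluster B chr11:96194316-96368256 with 10, cluster C chr15:102921103-103036852 with 9 and cluster D chr2:74668310-74765142 with 9. RefSeq promoter windows (GRCm38.p6), of 300 bases with 250 before a start, were at hand for 24 starts of 22 of the genes. The 120 bases before the start are printed for Hoxa10, which led to the choice of the family, for Hoxd10 of a run of cluster D genes higher in GHMT, for Hoxa3, which was lower in both sorted groups, and for Hoxb4, the Hox gene with most reads in CM. Capitals mark a CCAAT box or its complement ATTGG, or the Sp1-type box GGGCGG, and the Hoxa3 and Hoxb4 stretches hold neither.
Hoxa10, start at the lower coordinate, chr6:52234940-52235059, minus strand: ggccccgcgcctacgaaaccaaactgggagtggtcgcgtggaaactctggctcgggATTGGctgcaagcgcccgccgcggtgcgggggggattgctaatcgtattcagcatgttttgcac
Hoxa10, start at the higher coordinate, chr6:52240855-52240974, minus strand: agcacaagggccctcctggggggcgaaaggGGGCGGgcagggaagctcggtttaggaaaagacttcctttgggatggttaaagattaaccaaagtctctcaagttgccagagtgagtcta
Hoxd10, chr2:74691771-74691890, plus strand: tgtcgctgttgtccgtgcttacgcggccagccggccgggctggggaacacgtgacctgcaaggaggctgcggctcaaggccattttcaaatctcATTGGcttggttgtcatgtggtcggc
Hoxa3, chr6:52213068-52213187, minus strand: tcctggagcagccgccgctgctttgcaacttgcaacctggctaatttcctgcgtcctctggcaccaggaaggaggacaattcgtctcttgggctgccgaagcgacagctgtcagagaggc
Hoxb4, chr11:96318147-96318266, plus strand: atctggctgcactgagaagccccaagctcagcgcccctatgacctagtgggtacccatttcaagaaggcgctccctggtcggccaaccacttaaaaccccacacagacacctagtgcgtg
None of these stretches overlaps an annotated exon except that of Hoxa3, which lies in an exon of the antisense RNA gene Hoxaas3. CCAAT, read on both strands, was in 15 of the 24 Hox windows (62.5%) and in 37.4% of all 32851 windows of that length. The other letters searched, also on both strands, were GGGCGG (41.7% of Hox windows and 35.7% of all), TATAAA (16.7% and 13.6%), the Cdx-type TTTATG (20.8% and 11.9%) and the Pbx-Hox type TGATNNAT (16.7% and 8.85%), each counted whether or not it overlapped another. Hox windows held a median of 14.5 CG dinucleotides and all windows a median of 7. A match is a description of letters and shows no binding.

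Depth differed between groups. Reads in genes numbered 15971154 to 33552138 per library in E, 14386407 to 18493989 in the AGHMT libraries, 5120230 to 15952646 in CM and 1872558 to 2200815 in GHMT. Mitochondrially encoded genes took 3.65% to 7.36% of them in E and 27.8% to 72.2% in GHMT. GHMT 1 kept 612458 other reads and had a scaling factor of 0.347. By reads in genes, CM 3 was the lowest of its group (5120230) and E 1 the highest of its group (33552138). As a check of the labels, Tbx5 was at 3.06 to 4.63 counts per 1000000 reads (CPM, on the trimmed mean of M values scale) in E and at 63.8 to 177 in the sorted libraries, and Mef2c was at 12.8 to 17.1 in E and 156 to 246 in the sorted libraries. Gata4 was at 0 to 0.284 CPM in E and 2.62 to 15.6 in the sorted libraries, and Hand2, at 3.98, 1.72 and 1.10 in E, 1.31, 9.38 and 4.81 in GHMT and 5.69 to 6.39 in AGHMT libraries, overlapped between E and GHMT. The labels name Akt without saying which Akt gene. Akt1 was at 7.30, 12 and 19.6 CPM in the libraries labelled AGHMT, overlapping GHMT at 1.31, 13.5 and 13.7 and below the 104, 64.1 and 21 of E, so Akt1 reads do not bear out that label and those libraries are called AGHMT-labelled from here on. Summed markers matched the labelled cell types: 10 fibroblast genes reached 16283 to 17758 CPM in E, 3311 to 5133 in GHMT, 6895 to 8037 in AGHMT-labelled and 735 to 781 in CM libraries, and 10 cardiomyocyte genes 14.0 to 24.8, 928 to 1548, 5297 to 5737 and 36515 to 62028 CPM.

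Nearly the whole family was read in the fibroblasts and most of it in AGHMT-labelled cells, fewer genes were read in GHMT, and little of the family was read in cardiomyocytes. A read was found in all 3 libraries for 37 of the 38 genes in E, 32 in AGHMT-labelled, 18 in GHMT and 9 in CM cells. Hoxb1, the rhombomere gene at the head end of cluster B, had no read in any library. The lists without any read were Hoxa6, Hoxb1, Hoxb13 and Hoxd1 in AGHMT-labelled cells, 13 genes in GHMT and 15 in CM. Depth moved with these counts: GHMT libraries held reads of 19, 22 and 22 of the genes, and at the 612458 non-mitochondrial reads of GHMT 1 the expected numbers were 29.9 to 31 for E, 26.6 to 28.0 for AGHMT-labelled and 3.75 to 5.49 for CM libraries.

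Scaled per 1000000 reads of genes that are not mitochondrially encoded, Hox reads numbered 435, 449 and 412 in E, 464, 447 and 535 in AGHMT-labelled, 1007, 575 and 604 in GHMT and 8.64, 13.6 and 9.76 in CM libraries. All sorted libraries but 1, AGHMT-labelled 2 with 447, lay above the E range, and all CM libraries lay far below the others. On the TMM scale the summed level was 227 ± 8.04 CPM in E, 560 ± 217 in GHMT, 289 ± 34.9 in AGHMT-labelled and 5.74 ± 1.51 in CM (SD, n = 3 each), and without GHMT 1 the other GHMT libraries were at 460 and 412. The direction turned with the scale: per 1000000 of all gene reads, mitochondrial ones included, the sum was 407 ± 21.9 in E, 338 ± 69.3 in GHMT and 289 ± 27.1 in AGHMT-labelled cells. No test was made on these sums.

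**Figure D1:**
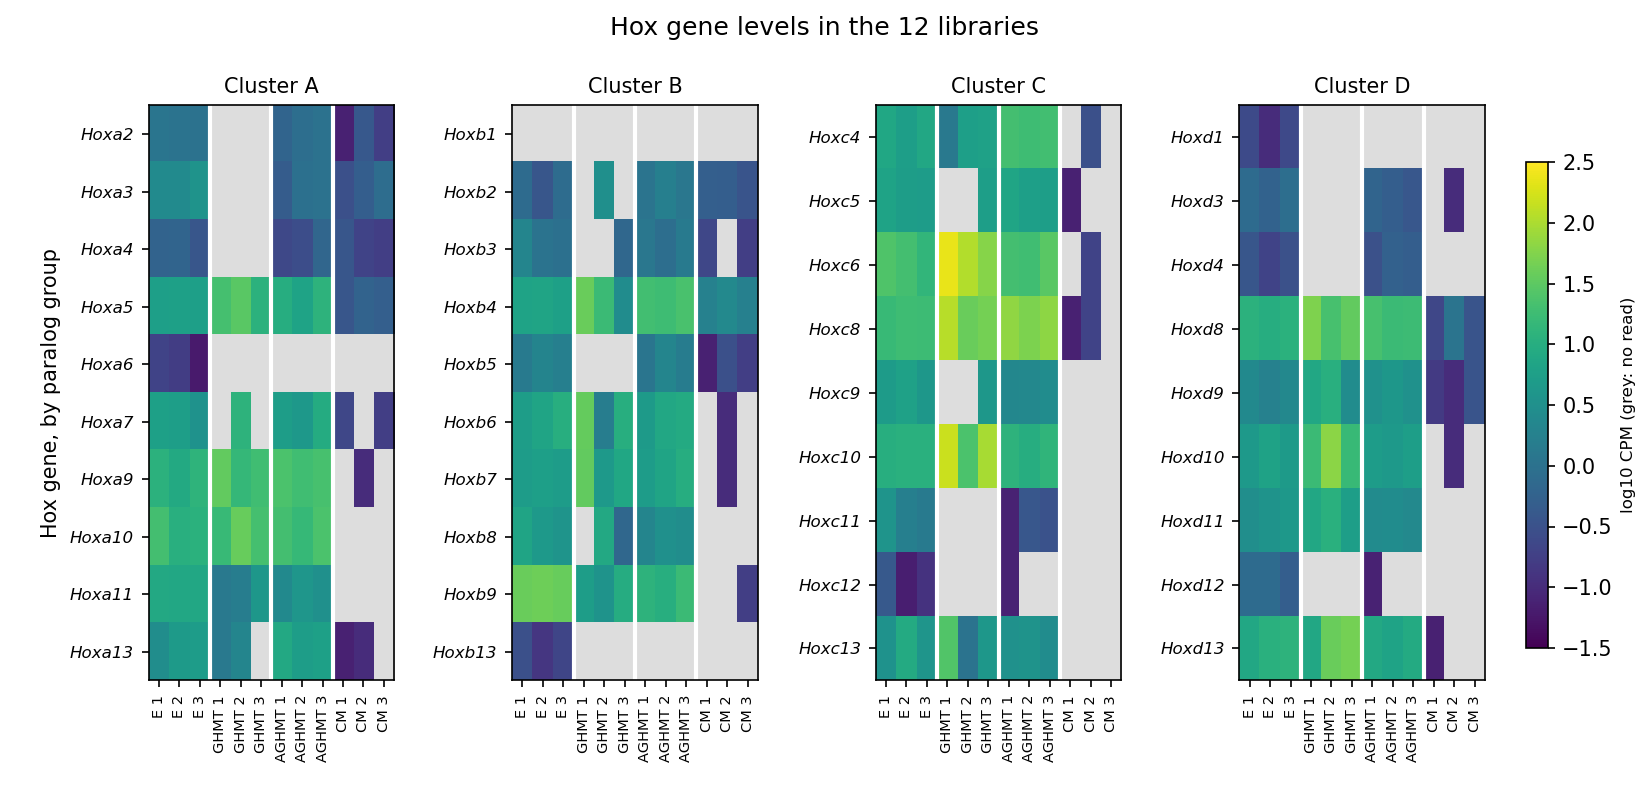
Level of each Hox gene (rows, in 4 clusters and by paralog group) in each of the 12 libraries (columns), as log10 CPM, with grey for no read. The CM columns are mostly grey, with 9 genes read in all 3 CM libraries, and GHMT lacks any read of 13 genes.

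Which Hox genes led differed by group. Ranked by mean CPM per kilobase of exon, the leading gene of E was Hoxb9, a posterior trunk gene, at 14.8, 16.0 and 14.6, above Hoxc6 at 10.4, 8.25 and 5.68, while Hoxc6, Hoxc8 (5.59, 6.31 and 6.21) and Hoxc10 (5.34, 5.77 and 5.67) overlapped as neighbours. In GHMT, Hoxc6, which acts at thoracic level, led with 96.4, 46.1 and 24.8 CPM per kilobase and overlapped Hoxc10 at 79.7, 12 and 49.3, which overlapped Hoxc8 at 41.7, 13.6 and 16.0. In AGHMT-labelled cells Hoxc8, a thoracic gene, led with 23.9, 17.9 and 23.3 CPM per kilobase, above Hoxc6 at 8.46, 7.68 and 12.4, and Hoxc6 overlapped Hoxb4 at 7.70, 6.97 and 8.80 and Hoxc4 at 7.87, 7.01 and 7.64. In CM the leading gene was Hoxb4, an anterior gene, at 0.695, 0.941 and 0.669 CPM per kilobase, above Hoxa5 at 0.198, 0.322 and 0.275. The 5 genes with most reads took 44.2% of Hox reads in E, 62.9% in GHMT, 50.1% in AGHMT-labelled and 70.5% in CM cells on average.

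By cluster, more of the Hox reads were of cluster C in sorted cells, through a few of its genes. Cluster C took 32.1% ± 2.30 of Hox reads in E, 52.6% ± 13.3 in GHMT, 44.0% ± 1.15 in AGHMT-labelled and 4.23% ± 4.81 in CM (SD, n = 3 each). Cluster B took 29.6% ± 1.18, 9.96% ± 3.46, 18.8% ± 2.29 and 50.8% ± 5.30 in the same order. Every sorted library had a larger share of cluster C and a smaller share of cluster B than every E library. In mean percent of Hox reads, Hoxc8 took 7.54 in E, 11.3 in GHMT and 21.2 in AGHMT-labelled cells, and Hoxb9 took 17.2, 1.26 and 4.46. Hoxc6 (8.55, 22.4 and 7.85) and Hoxc10 (4.71, 15.6 and 4.01) had larger mean shares in GHMT alone. The mean shares of Hoxc5, Hoxc9, Hoxc11, Hoxc12 and Hoxc13 were smaller in both sorted groups than in E. By position, groups 9 to 13 took 53.7% ± 1.35 in E, 44.7% ± 10.4 in GHMT, 34.7% ± 0.618 in AGHMT-labelled and 7.29% ± 2.41 in CM, and the GHMT and E ranges overlapped. Groups 1 to 4 took 9.36% ± 0.836 in E, 4.25% ± 1.69 in GHMT, 15.6% ± 0.813 in AGHMT-labelled and 65.7% ± 5.81 in CM, so that the anterior share was smaller in GHMT and larger in AGHMT-labelled libraries than in any E library. Shares do not depend on the scaling of libraries, they are set by the same counts as the levels, and no test was made on them.

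**Figure D2:**
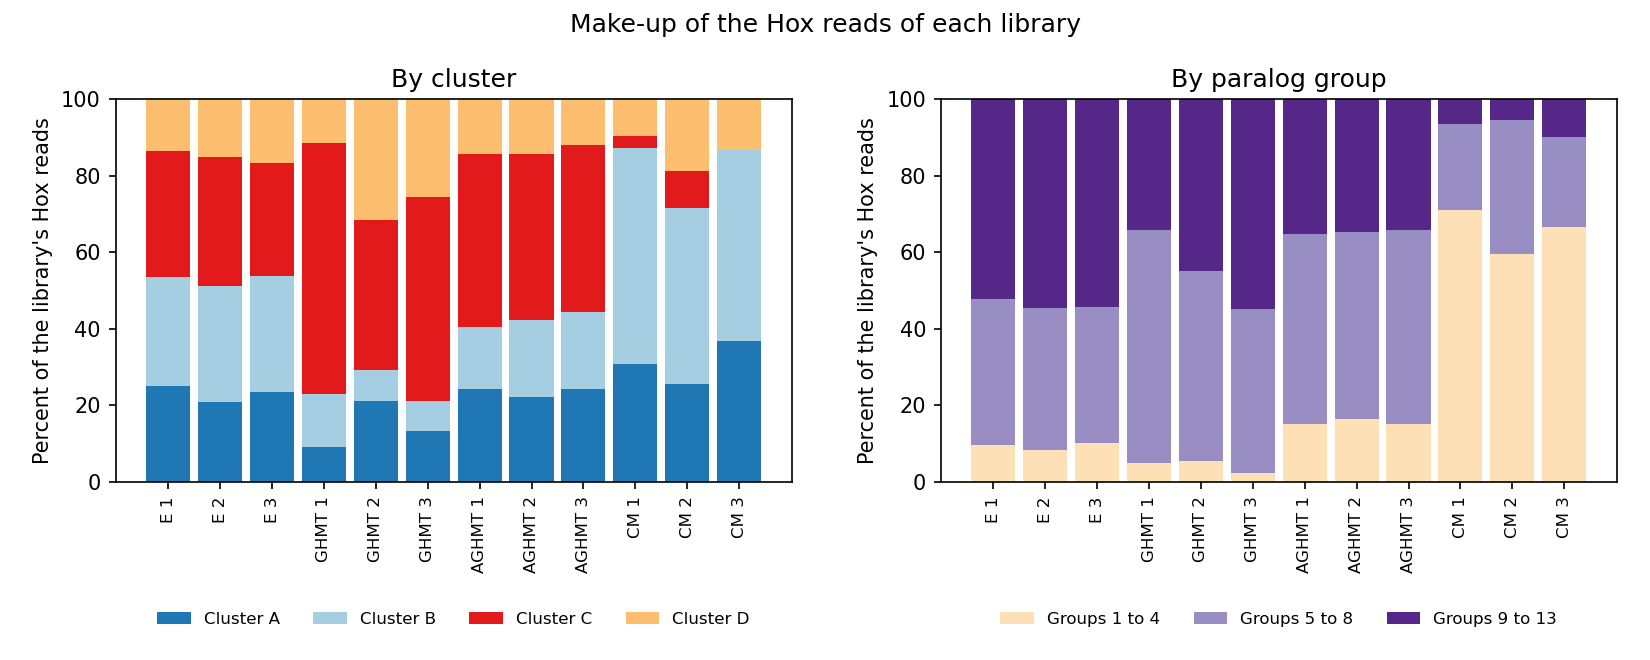
Percent of each library's Hox reads by cluster (left) and by paralog group (right), stacked to 100, for the 12 libraries. Cluster C fills more of every GHMT and AGHMT-labelled bar than of any E bar, and groups 1 to 4 fill 59.5% to 71.0% of the CM bars, which rest on 166 reads.

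Tests were made for the other 37 genes, of which 30 passed the filter on low counts and 7 did not (Hoxa4, Hoxa6, Hoxb1, Hoxb13, Hoxc12, Hoxd1 and Hoxd4), by the quasi-likelihood method of edgeR, with p-values adjusted by the Benjamini-Hochberg procedure over 15059 genes at a threshold of 0.05. A gene that passed the filter through 1 group only had to differ, so the counts do not speak for all members. Hoxa2, Hoxc11, Hoxd3 and Hoxd12 passed only with the E libraries. For them being lower was set in advance, and their adjusted p is no support. The same limit holds for genes of the further lists that were read almost only in E. In GHMT against E, 8 were higher (19.8% of all genes tested were higher) and 7 lower (32.9% of all genes). The higher genes were Hoxa5, Hoxc6, Hoxc8, Hoxc10, Hoxd8, Hoxd9, Hoxd10 and Hoxd13, and the lower ones Hoxa2, Hoxa3, Hoxa11, Hoxb5, Hoxb9, Hoxc11 and Hoxd3. In this fit, the share of tested members that were higher lay above, and the share lower below, that of all genes. The median log2 fold change was 0.35 over the 30 genes, 0.46 with the genes without reads at their bounds, and -1.06 over all genes tested. By position, 0 of 7 genes of groups 1 to 4 were higher and 3 lower, 4 of 10 of groups 5 to 8 were higher and 1 lower, and 4 of 13 of groups 9 to 13 were higher and 3 lower. Of these lower genes, the side of Hoxa2 and Hoxd3 in groups 1 to 4 and of Hoxc11 in groups 9 to 13 was set in advance. Scaling by total counts changed the 8 higher and 7 lower to 1 and 12, and a correction for GC content to 17 and 1. All genes moved the same way, from 2979 higher and 4948 lower to 1110 and 8111, and to 4745 and 1842. With total counts the share of tested members that were higher lay below that of all genes. Leaving out E 1, AGHMT-labelled 3 or E 2 left 3, 4 or 5 Hox genes higher, and without GHMT 1, CM 3 and E 1 together 8 were higher and 4 lower.

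In AGHMT-labelled cells against E, 2 genes were higher, Hoxb4 and Hoxc8 (21.9% of all genes), and 4 lower, Hoxa3, Hoxb9, Hoxc11 and Hoxd12 (24.6% of all genes), with a median log2 fold change of -0.05 over the 30 genes and -0.16 over all. Both shares lie below those of all genes. Of the lower genes, Hoxc11 and Hoxd12 passed the filter on low counts through E only, so their lower side was set in advance. Leaving out any E or any AGHMT-labelled library, or CM 1, left 1 gene higher, and leaving out E 1, E 2 or any AGHMT-labelled library left 2 lower. Against GHMT, AGHMT-labelled cells had 2 genes higher, Hoxa13 and Hoxb5 (13.2% of all genes), and 4 lower, Hoxc6, Hoxc10, Hoxd10 and Hoxd13 (4.58% of all genes), with a median of 0.08 over the 30 genes, -0.22 with bounds, and 0.63 over all. The higher count there was 6 without E 1, 4 without GHMT 3, 1 without E 2, E 3, GHMT 1, AGHMT-labelled 1 or CM 1, and 0 without AGHMT-labelled 2, and the lower count was 2 without GHMT 2 or any AGHMT-labelled library. Comparisons with E share the same 3 E libraries, so their lists are given side by side only.

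**Figure D3:**
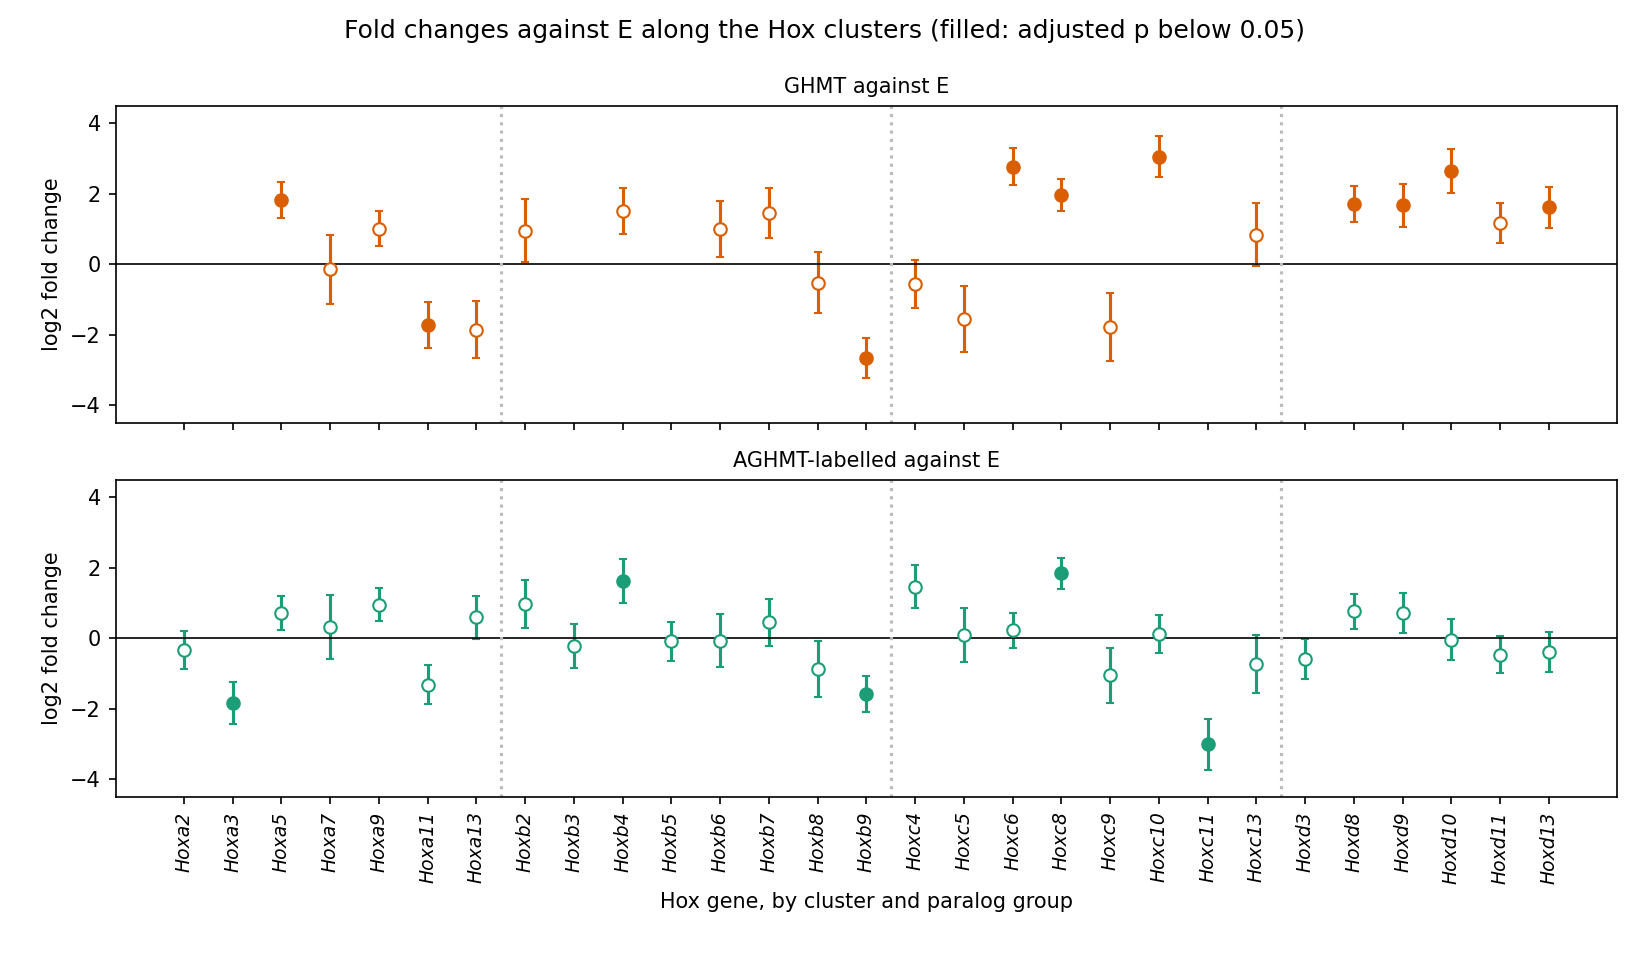
Log2 fold change with its standard error for Hox genes in GHMT against E (top) and AGHMT-labelled against E (bottom), by cluster and paralog group, with filled points for an adjusted p below 0.05. Genes not tested, Hoxa10, and genes with 3 or fewer reads in the lower group are left out. The top panel has filled points between -2.66 for Hoxb9 and 3.05 for Hoxc10, and the bottom panel between -3.01 for Hoxc11 and 1.84 for Hoxc8.

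Among anterior genes (groups 1 to 4), cluster A and D members had no reads in GHMT while Hoxb4 and Hoxc4 were read in all sorted libraries. Hoxa3, needed for thymus, parathyroid and neck structures, was at 2.56, 2.60 and 3.64 CPM in E, at 0 in the 3 GHMT libraries, at 0.461, 0.936 and 1.04 in the AGHMT-labelled and at 0.297, 0.503 and 0.859 in the CM libraries. No sorted or CM library reached the E range. In GHMT it was at least 4.05-fold lower than in E, against a floor of 3 reads pooled over the group (0.725 CPM), with an adjusted p of 0.00251. In AGHMT-labelled cells its log2 fold change was -1.83 (SE 0.59, adjusted p = 0.0233), and the call was lost without E 1, E 2 or any AGHMT-labelled library (adjusted p 0.0518 to 0.117). A share of 25.4% of its exons lies opposite antisense genes, and whether the counting used strand is not given in the sources used here, although the library kit was stranded.

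Hoxa2, the patterning gene of the second pharyngeal arch, was at 1.15, 1.05 and 1.01 CPM in E, at 0 in GHMT and at 0.615, 0.881 and 1.04 in AGHMT-labelled libraries. It was at least 1.48-fold lower in GHMT than in E (adjusted p = 0.0155, 0.062 without GHMT 2 and 0.102 with GC correction) and overlapped E in AGHMT-labelled cells. Hoxd3, which acts in the cervical spine, was at 0.786, 0.575 and 0.887 CPM in E, 0 in GHMT and 0.615, 0.495 and 0.382 in AGHMT-labelled libraries. Its bound in GHMT was 1.03-fold (adjusted p = 0.0312, and 0.0512 to 0.121 without E 3, AGHMT-labelled 2 or any GHMT library, 0.489 with GC correction), and 62.4% of its exons are shared with Hoxd4 and a further gene model on the same strand. These levels sit close to the GHMT floor, so depth limits what can be said of them.

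Hoxb4, an anterior gene also known from blood stem cells, was at 6.59, 6.93 and 5.93 CPM in E, 38, 16.7 and 2.75 in GHMT, 19.8, 17.9 and 22.6 in AGHMT-labelled and 1.78, 2.42 and 1.72 in CM libraries. All AGHMT-labelled libraries lay above E, whereas GHMT ran from below to far above it. The log2 fold change in AGHMT-labelled cells was 1.63 (SE 0.62, adjusted p = 0.0419), lost without any E library, any AGHMT-labelled library or CM 1 (adjusted p 0.0543 to 0.105), with total counts (0.291) and with DESeq2 (0.0635), and in GHMT it was 1.51 (SE 0.64, adjusted p = 0.0607). Hoxc4 was at 7.54, 5.61 and 7.80 CPM in E, 1.31, 5.73 and 6.19 in GHMT and 20.2, 18.0 and 19.6 in AGHMT-labelled libraries. The AGHMT-labelled libraries again lay above both other groups, but neither difference passed the test (log2 1.46, adjusted p = 0.0628 against E, and 2.03, adjusted p = 0.053 against GHMT).

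The other tested anterior genes were low. Hoxb2 was at 0.372 to 0.825 CPM in E, 0 to 3.13 in GHMT and 1.08 to 1.71 in AGHMT-labelled libraries, and Hoxb3 at 0.948 to 2.09, 0 to 0.687 and 0.881 to 1.42. Neither passed in the sorted cells, and 27.3% and 52.9% of their exons lie opposite Hoxb3os. Untested Hoxa4, Hoxd1 and Hoxd4 had 65, 26 and 38 reads in E, none in GHMT, and 20, 0 and 23 in AGHMT-labelled cells.

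Among the central genes (groups 5 to 8), Hoxc6 and Hoxc8 of cluster C were above E in all GHMT libraries, and Hoxc8 in all AGHMT-labelled ones. Hoxc8, which patterns the lower thoracic skeleton, was at 15.8, 17.9 and 17.6 CPM in E, 118, 38.6 and 45.4 in GHMT and 67.6, 50.7 and 65.9 in AGHMT-labelled libraries. Every sorted library exceeded every E library by a wide gap. The log2 fold change was 1.95 (SE 0.45, adjusted p = 0.00271) in GHMT and 1.84 (SE 0.44, adjusted p = 0.00436) in AGHMT-labelled cells, and -0.11 between the sorted groups (adjusted p = 0.878). The GHMT call was lost without E 1 (log2 1.20, adjusted p = 0.0604), and with total counts neither passed (adjusted p 0.572 and 0.0531), nor did AGHMT-labelled cells with limma (0.0868).

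Hoxc6 was at 25.1, 19.9 and 13.7 CPM in E, 232, 111 and 59.8 in GHMT and 20.4, 18.5 and 29.8 in AGHMT-labelled libraries. GHMT stood apart from both other groups, which overlapped. The log2 fold change was 2.77 (SE 0.53, adjusted p = 0.000731) in GHMT against E, 0.23 (adjusted p = 0.725) in AGHMT-labelled cells against E, and -2.54 (SE 0.52, adjusted p = 0.00612) between AGHMT-labelled and GHMT cells. Of the 25 alternatives, total counts alone ended the call against E (adjusted p = 0.0756), and none ended that between the sorted groups.

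Hoxa5, a gene of lung and cervical to upper thoracic level, was at 5.79, 5.98 and 5.81 CPM in E, 21, 29.7 and 11.7 in GHMT and 9.99, 6.72 and 12.2 in AGHMT-labelled libraries. All sorted libraries lay above E. Only GHMT passed (log2 1.83, SE 0.51, adjusted p = 0.00799), with the call lost without E 1 or AGHMT-labelled 3 (adjusted p 0.119 and 0.0732), with total counts (0.52), with the 2 groups alone (0.0672) and with thinning (0.144), while AGHMT-labelled cells gave 0.72 (adjusted p = 0.234) and the difference between the sorted groups did not pass (-1.11, adjusted p = 0.132). Hoxd8, the most anterior of the cluster D genes read in GHMT, was at 11.8, 9.97 and 11.3 CPM in E, 52.4, 21.9 and 35.1 in GHMT and 21.7, 17.1 and 17.5 in AGHMT-labelled libraries. It too was above E in all 6 sorted libraries, with a log2 change of 1.71 (SE 0.51, adjusted p = 0.0127) in GHMT, lost without E 1, E 2 or AGHMT-labelled 3 (adjusted p 0.148, 0.0525 and 0.108), with total counts (0.829), with TMM without mitochondrial genes (0.0623) and with limma (0.0581), and 0.77 (adjusted p = 0.212) in AGHMT-labelled cells.

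Hoxb5, the cluster B gene at the level of the shoulder, moved the other way in GHMT. It was at 1.39, 1.99 and 1.71 CPM in E, 0 in GHMT and 1.15, 2.09 and 1.53 in AGHMT-labelled libraries. It was at least 2.34-fold lower in GHMT than in E (adjusted p = 0.00624, 0.236 with GC correction) and at least 2.19-fold higher in AGHMT-labelled than in GHMT cells (adjusted p = 0.0225, 0.0543 without GHMT 2, 0.0672 without AGHMT-labelled 2 and 0.115 with GC correction). The neighbours of Hoxb5 in cluster B were not called. Hoxb6 was at 5.27, 6.83 and 10.3 CPM in E, 35.4, 1.56 and 10.3 in GHMT and 4.76, 7.87 and 8.78 in AGHMT-labelled libraries. Hoxb7 was at 5.10, 5.71 and 5.23 in E, 34.1, 4.69 and 7.56 in GHMT and 5.15, 6.94 and 9.87 in AGHMT-labelled libraries, so for both genes GHMT 1 alone stood far above E. Hoxb8 ran from 3.76 to 6.77 CPM in E, 0 to 8.34 in GHMT and 2.07 to 3.19 in AGHMT-labelled libraries.

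Hoxa7 was at 5.94, 5.61 and 3.52 CPM in E, 0, 12 and 0 in GHMT and 5.38, 4.24 and 9.16 in AGHMT-labelled libraries. Its reads in GHMT came from 1 library, and it was not called. Hoxc5 was likewise read in 1 GHMT library, at 5.5 CPM in GHMT 3, against 6.67, 5.41 and 5.14 in E and 7.07, 5.67 and 5.62 in AGHMT-labelled libraries, and was not called.

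Among the posterior genes (groups 9 to 13), Hoxb9 lost its place at the head of the family. Hoxb9 was at 38.2, 41.2 and 37.6 CPM in E, 5.24, 3.65 and 9.62 in GHMT, 12.3, 10.1 and 16.6 in AGHMT-labelled and 0, 0 and 0.172 in CM libraries. No sorted library reached the E range, and AGHMT-labelled libraries lay above GHMT. The log2 fold change was -2.66 (SE 0.57, adjusted p = 0.00153) in GHMT and -1.58 (SE 0.50, adjusted p = 0.0184) in AGHMT-labelled cells, and 1.07 between AGHMT-labelled and GHMT cells (adjusted p = 0.185). Correction for GC content ended the calls against E (adjusted p 0.429 and 0.0906), and the AGHMT-labelled call was also lost without E 1, E 2 or any AGHMT-labelled library (adjusted p 0.0587 to 0.0869).

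The ratio of Hoxb9 to Hoxc8 reads, which needs no scaling between libraries, was 2.41, 2.30 and 2.14 in E, 0.0444, 0.0946 and 0.212 in GHMT and 0.182, 0.20 and 0.251 in AGHMT-labelled libraries. Hoxb9 thus had more reads than Hoxc8 in every E library and fewer in each of the 6 sorted libraries. Both genes were named for their levels in these data, so no test of the ratio was made.

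Hoxc10, a lumbar and hindlimb gene, was at 10.2, 11 and 10.8 CPM in E, 152, 22.9 and 94.2 in GHMT and 12.2, 9.74 and 12.9 in AGHMT-labelled libraries. The AGHMT-labelled and E libraries overlapped, and GHMT lay above both. The log2 fold change of 3.05 (SE 0.58, adjusted p = 0.000994) in GHMT against E and that of -2.93 (SE 0.58, adjusted p = 0.00616) in AGHMT-labelled against GHMT cells held their calls under all 25 alternatives, and AGHMT-labelled cells against E gave 0.12 (adjusted p = 0.868).

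Hoxd10, a gene of the lumbar cord and the limb, was at 4.43, 6.42 and 4.83 CPM in E, 17.0, 64.1 and 15.8 in GHMT and 5.07, 4.51 and 5.62 in AGHMT-labelled libraries. As for Hoxc10, only GHMT stood apart, with a log2 change of 2.65 (SE 0.62, adjusted p = 0.00297), lost with total counts alone (0.114). Against GHMT, AGHMT-labelled cells gave -2.69 (SE 0.63, adjusted p = 0.0112), lost without GHMT 2 or any AGHMT-labelled library (adjusted p 0.0501 to 0.0788) and with thinning to 1 depth (0.0621). Hoxd13, needed for digits, was at 7.98, 10.9 and 12.2 CPM in E, 7.87, 38.6 and 46.7 in GHMT and 8.15, 6.61 and 8.89 in AGHMT-labelled libraries. GHMT 1 lay below all E libraries while the other GHMT libraries lay above them. It passed with log2 1.61 (SE 0.58, adjusted p = 0.0295) in GHMT against E and -2.01 (SE 0.59, adjusted p = 0.0307) in AGHMT-labelled against GHMT cells, but 5 of the 12 fits that leave out a library ended the call against E (without E 1, E 2, GHMT 2, GHMT 3 or AGHMT-labelled 3, adjusted p 0.0698 to 0.314), as did total counts (0.642), and 8 of 12 that against GHMT (without E 1, E 2, GHMT 2, GHMT 3, CM 1 or any AGHMT-labelled library, adjusted p 0.0511 to 0.187), as did total counts (0.129).

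Hoxd9 was at 2.53, 1.79 and 2.29 CPM in E, 7.87, 10.4 and 2.75 in GHMT and 3.38, 4.18 and 3.33 in AGHMT-labelled libraries. All sorted libraries lay above E, and GHMT passed (log2 1.67, SE 0.61, adjusted p = 0.0324), but 8 of the 12 fits that leave out a library did not keep that call (all but those without GHMT 3 or a CM library, adjusted p 0.051 to 0.197), nor did total counts (0.743). Hoxd11 was at 2.98, 3.65 and 4.34 CPM in E, 7.87, 10.9 and 5.5 in GHMT and 2.69, 2.81 and 2.45 in AGHMT-labelled libraries, with groups that did not overlap and no call (adjusted p 0.0985 for GHMT against E and 0.0674 between the sorted groups). Taking the genes from Hoxd8 to Hoxd13 in order, 4 of 6 were higher in GHMT than in E, where 19.8% of all genes were higher. That run leaves out Hoxd1, Hoxd3 and Hoxd4, which had no read in GHMT. Its bounds follow from these values, so the count is a description. Of the 25 alternatives, 19 kept the call of Hoxd8, 9 that of Hoxd9, 24 that of Hoxd10 and 13 that of Hoxd13. Hoxd11 was above E without a call, and Hoxd12 had no read in GHMT against 0.786, 0.778 and 0.489 CPM in E (adjusted p = 0.0577). In AGHMT-labelled libraries Hoxd12 had 1 read against 86 in E, a level 34.9 times lower with an exact counting interval of 6.10 to 1394 (adjusted p = 0.00263, 0.0596 with DESeq2). Hoxd12 passed the filter on low counts through E only, so its lower side was set in advance. None of the other genes of that run passed in AGHMT-labelled cells.

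Hoxa11 and Hoxc11 were lower in sorted cells. Hoxa11, needed for the forearm, kidney and uterus, was at 8.08, 7.94 and 7.95 CPM in E, 1.31, 1.56 and 4.12 in GHMT and 2.46, 3.96 and 3.16 in AGHMT-labelled libraries. All 6 sorted libraries lay below E. The log2 fold change was -1.73 (SE 0.66, adjusted p = 0.0407) in GHMT on 10 reads, turned to 0.66 by correction for GC content (adjusted p = 0.387), and was lost without E 2, E 3, GHMT 1, GHMT 2, AGHMT-labelled 1 or 2, or CM 1 (adjusted p 0.0519 to 0.101), and in AGHMT-labelled cells it was -1.32 (adjusted p = 0.0695). A share of 35.0% of its exons lies opposite Hoxa11os. Hoxc11 was at 3.68, 1.66 and 1.35 CPM in E, 0 in GHMT and 0.0769, 0.385 and 0.327 in AGHMT-labelled libraries. It was at least 3.07-fold lower in GHMT (adjusted p = 0.012, 0.178 with GC correction) and lower by a log2 change of -3.01 (SE 0.73, adjusted p = 0.0072) in AGHMT-labelled cells, where 14 reads were counted. Hoxc11 passed the filter on low counts through E only, so its lower side was set in advance.

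Of the remaining posterior genes, Hoxa13, needed for the hand plate and the hindgut, was at 2.93, 4.73 and 5.14 CPM in E, 1.31, 2.08 and 0 in GHMT and 8.15, 5.29 and 5.83 in AGHMT-labelled libraries. AGHMT-labelled libraries lay above GHMT with log2 2.45 (SE 0.81, adjusted p = 0.0493), a call on 5 GHMT reads that 8 of the 12 fits leaving out a library did not keep (all but those without E 1, GHMT 2, AGHMT-labelled 3 or CM 3, adjusted p 0.0575 to 0.128), nor did GC correction (0.276). Hoxa9, known from leukaemia with MLL fusions, was at 11.7, 8.48 and 12.6 CPM in E, 34.1, 14.6 and 18.6 in GHMT and 23.1, 18.7 and 22.0 in AGHMT-labelled libraries. All 6 sorted libraries lay above E, without a call (log2 1.0 and 0.96, adjusted p 0.101 and 0.114). Hoxc9 was at 4.93, 6.19 and 4.19 CPM in E, at 4.12 in GHMT 3 and 0 in the other GHMT libraries, and at 2.23, 2.31 and 2.84 in AGHMT-labelled libraries, and Hoxc13, a hair follicle gene, at 3.50, 8.69 and 3.88, then 26.2, 1.04 and 4.12, then 3.30, 3.58 and 2.78. Neither was called. Untested Hoxa6, Hoxb13 and Hoxc12 had 19, 29 and 31 reads in E, none in GHMT and 0, 0 and 1 in AGHMT-labelled cells.

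**Figure D4:**
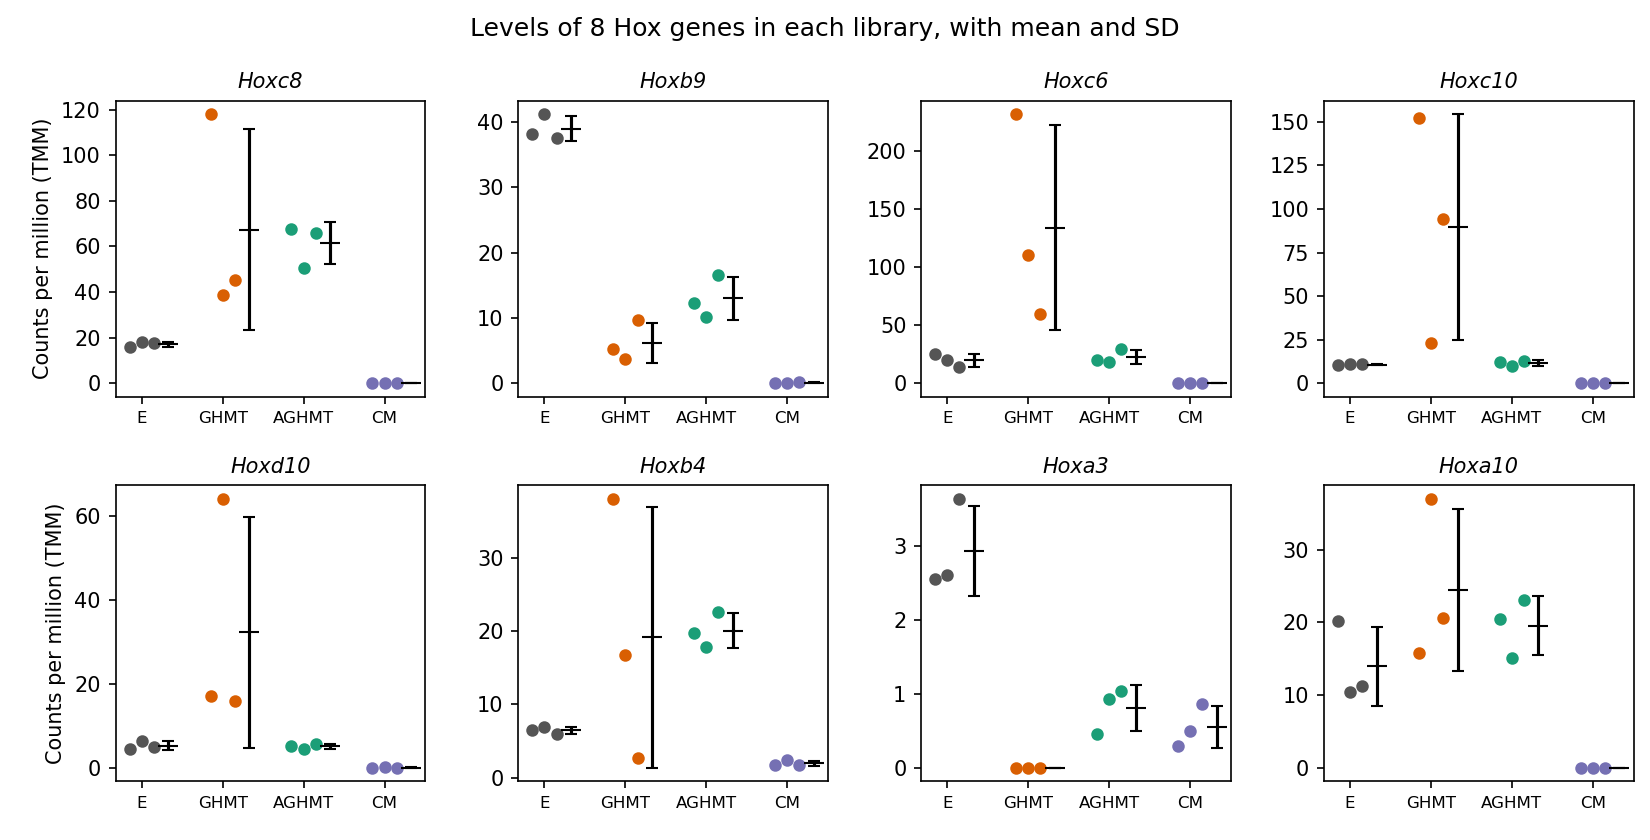
CPM of 8 Hox genes in each library (points) with the group mean and SD (bars, n = 3), on linear axes. Hoxc8 is above E and Hoxb9 below E in all 6 sorted libraries, Hoxc6, Hoxc10 and Hoxd10 are high in GHMT alone, and Hoxa10 is at 0 in the 3 CM libraries.

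Hoxa10, a posterior gene of the uterus and hindlimb whose persistence led to this choice of genes, was at 20.2, 10.4 and 11.2 CPM in E, 15.7, 37.0 and 20.6 in GHMT, 20.5, 15.1 and 23.0 in AGHMT-labelled and 0 in all 3 CM libraries. The sorted libraries overlapped E, with 12, 71 and 30 reads in GHMT. Its level in CM was at least 136-fold lower than in E, 238-fold lower than in GHMT and 190-fold lower than in AGHMT-labelled cells, against a floor of 3 reads pooled over the CM libraries (0.103 CPM). No annotated exon of another gene overlaps those of Hoxa10.

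In CM against E, 29 of the 30 tested genes were lower (22.5% of all genes) and 0 higher (19.5% of all genes), with a median log2 fold change of -6.98, or -5.62 with genes without reads at their bounds, against -0.26 over all genes. The absence of Hoxa10 from CM was part of the choice of the family, so this count is a description. At an unadjusted p under 0.05, edgeR, DESeq2 and limma each had 0 genes higher. Hoxb2 was the exception among the lower ones, at 0.520, 0.503 and 0.344 CPM in CM against 0.803, 0.372 and 0.825 in E (log2 -0.52, adjusted p = 0.609). The remainder in CM was anterior. Of 166 Hox reads in CM, 108 were of groups 1 to 4, 47 of groups 5 to 8 and 11 of groups 9 to 13, and the summed CPM of CM was 17.5% of that of E for groups 1 to 4, 1.93% for groups 5 to 8 and 0.332% for groups 9 to 13.

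Hoxb4 gave 58 of those reads, and its log2 fold change of -1.71 (SE 0.64, adjusted p = 0.0444) was lost in 9 of the 12 fits that leave out a library (all but those without a GHMT library, adjusted p 0.0527 to 0.135), and with DESeq2 (0.0766). Hoxd8 gave 16 reads (log2 -4.28, SE 0.61, adjusted p = 5.01e-05), Hoxa5 14 (log2 -3.56, SE 0.58, adjusted p = 0.000166) and Hoxa3 14 (log2 -2.47, SE 0.64, adjusted p = 0.00735, 0.052 without CM 1). Hoxa2, with 6 reads, gave log2 -2.30 (SE 0.67, adjusted p = 0.0135), and 0.0995 without CM 1. At the other end, Hoxb9, the leading gene of E, had 1 read in CM against 4731 in E, a level 1132 times lower with an exact counting interval that starts at 203. Hoxc8, with 3 reads, was 164 times lower (55.9 to 794) and Hoxc6, with 2, 303 times lower (83.9 to 2505). Hoxc10, with no read in CM, was at least 104-fold lower than in E.

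Markers of other cells went both ways in CM against E. In CM the summed fibroblast markers were at 4.47% of their level in E and ranged by gene from 0.269% for Lox to 27.7% for Pdgfrb, none at 0. Summed endothelial markers, 8 genes, were higher, at 633 to 769 CPM in CM and 32.8 to 35.0 in E. So were summed macrophage markers, at 75.4 to 99.3 CPM in CM and 8.44 to 12.8 in E. The part of any of these cell types in the Hox reads of CM was not tested. Set beside CM with no test, Hoxb4 was at 1.97 ± 0.385 CPM in CM, 19.1 ± 17.8 in GHMT and 20.1 ± 2.36 in AGHMT-labelled cells, Hoxc8 at 0.0919 ± 0.102, 67.3 ± 44.0 and 61.4 ± 9.29, and Hoxd8 at 0.558 ± 0.479, 36.5 ± 15.3 and 18.8 ± 2.58 (SD, n = 3 each). For these genes every sorted library lay above every CM library.

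Markers of other cells also differed between sorted cells and E. Of 10 fibroblast markers 9 were lower in GHMT and 7 in AGHMT-labelled cells against E, none was at 0 in any library, and all 10 cardiomyocyte markers were higher in both. Mast cell markers summed to 65.5 to 162 CPM in GHMT and 311 to 340 in AGHMT-labelled libraries against 0.217 to 0.489 in E, nearly all from Mcpt4, and the other 5 of the 6 genes, Kit and Cpa3 among them, were at 0 in each GHMT library. Epicardial and mesothelial markers summed to 362 to 402 CPM in GHMT and 257 to 329 in AGHMT-labelled libraries against 29.9 to 34.0 in E, of which Tbx18 gave 323 to 376 in GHMT, and up to 3 of the 5 genes were at 0 in a GHMT library. Endothelial markers summed to 142 to 193 CPM in GHMT, of which Flt1 gave 134 to 190, and to 189 to 210 in AGHMT-labelled libraries, with 1 to 5 of 8 genes at 0 in GHMT libraries. Macrophage markers summed to 8.44 to 12.8 CPM in E, 2.06 to 2.62 in GHMT, with 5 of 7 genes at 0 in each library, and 51.2 to 110 in AGHMT-labelled libraries. Smooth muscle and pericyte markers summed to 1105 to 5545 CPM in E and 309 to 843 in sorted libraries, and neural markers to at most 13.6 in any, with 3 to 5 of 5 genes at 0 in GHMT libraries. The part of these cell types in the Hox pattern was not tested. In GHMT against E, the median exonic GC was 50.3% for the 8 higher (46.5% to 61.0%), 53.6% for the 7 lower (48.9% to 56.5%) and 54.8% for the 15 Hox genes not called, so that the ranges overlapped, and 49.2% for all genes tested.

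Genes of partner proteins of the Hox factors were set beside the shares of all genes. Of 9 TALE cofactors 8 were tested, and 0 passed in GHMT against E with edgeR (0 higher and 1 lower at an unadjusted p under 0.05), 1 was lower and 0 higher in AGHMT-labelled cells, and 2 were lower in CM, with medians of 0.15, -0.03 and -0.67. Meis3 was the gene lower in AGHMT-labelled cells (log2 -3.96, SE 1.0, adjusted p = 0.00598), from 3.33 ± 3.92 CPM in E to 0.212 ± 0.0994. It was read almost only in E (533 reads, and 10 in AGHMT-labelled cells), so its lower side was set in advance. Of 9 Trithorax and MLL complex genes, which keep Hox genes active, 1 was higher and 3 lower in GHMT and 0 and 3 in AGHMT-labelled cells, with medians of -1.26 and -0.68. The share lower in GHMT was near the 32.9% of all genes, and that in AGHMT-labelled cells above the 24.6%. The shares higher lay below the 19.8% and 21.9% of all genes. Psip1, the chromatin reader that tethers MLL, was higher in GHMT (326 ± 138 against 99.3 ± 41.2 CPM in E, log2 1.71, SE 0.43, adjusted p = 0.0043). Wdr5, the core subunit, was lower in GHMT (3.41 ± 1.84 against 33.5 ± 7.95 CPM, log2 -3.43, adjusted p = 0.000144) and in AGHMT-labelled cells (8.46 ± 0.860 CPM, log2 -1.99, adjusted p = 0.00233), and so was the methyltransferase Kmt2b (log2 -3.63 and -2.82, adjusted p 0.002 and 0.00287). The GHMT values rest on 12 reads of Wdr5 and 5 of Kmt2b, and Kmt2b was at 24.7, 15.6 and 7.09 CPM in E. For genes of the further lists, calls under the alternatives are not given here. The tumour suppressor Men1, an MLL partner, was lower in AGHMT-labelled cells (log2 -2.81, SE 0.87, adjusted p = 0.0173).

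Among noncoding RNAs of the clusters, 6 of 11 were tested. Those with a read can share it with a gene on the other strand where the counting ignored strand. Of the 6, 1 was higher and 4 lower in GHMT, and 1 was higher and 1 lower in AGHMT-labelled cells. The share higher lay below the background of 19.8% in GHMT and of 21.9% in AGHMT-labelled cells. The share lower lay below the background of 24.6% in AGHMT-labelled cells. In GHMT it lay above the 32.9%, but through genes whose lower side was set in advance. Hoxb3os, antisense to Hoxb2 and Hoxb3, was at 0.452, 0.642 and 0.764 CPM in E, 45.9, 7.29 and 46.7 in GHMT, 3.38, 2.53 and 3.27 in AGHMT-labelled and 0.372, 0.805 and 0.172 in CM libraries. All sorted libraries lay above E and GHMT lay above AGHMT-labelled libraries, with log2 fold changes of 5.72 (SE 0.78, adjusted p = 5.65e-05) in GHMT, 2.30 (SE 0.68, adjusted p = 0.0133) in AGHMT-labelled cells and -3.42 (SE 0.70, adjusted p = 0.00591) between the sorted groups. Hoxb2 and Hoxb3, on the other strand, did not pass in either. The 4 lower in GHMT, Hotair, Hoxaas2, Hoxaas3 and Haglr, had no read there and 95, 192, 112 and 127 in E, and Hoxaas2 was also lower in AGHMT-labelled cells (log2 -2.06, SE 0.60, adjusted p = 0.0147). These 4 passed the filter on low counts only with the E libraries, so their lower side was set in advance.

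Retinoic acid is a signal that turns on low-numbered Hox genes. Of its 18 listed pathway genes 15 were tested, with 3 higher and 6 lower in GHMT and 5 and 7 in AGHMT-labelled cells, and medians of -2.09 and -1.27. The GHMT shares lay near those of all genes (19.8% higher and 32.9% lower). In AGHMT-labelled cells both shares were above those of all genes (21.9% higher and 24.6% lower). Aldh1a1, a retinoic acid synthesising enzyme, was at 4.77 ± 0.473 CPM in E, 172 ± 4.84 in GHMT and 190 ± 22.4 in AGHMT-labelled cells (SD, n = 3; log2 5.16 and 5.31, adjusted p 5.42e-08 and 3.87e-08). Its paralogs Aldh1a2 and Aldh1a3 were higher in both as well (log2 1.89 to 2.65), although GHMT 1 held no read of Aldh1a2 and had 1.31 CPM of Aldh1a3, below E. Crabp2, another binding protein, and the receptor Rarg were lower in both, with 2 and 1 reads in GHMT, and by log2 -5.42 (adjusted p = 0.000328) and -3.25 (adjusted p = 0.000864) in AGHMT-labelled cells. Crabp2 was read almost only in E (2089 reads, and 18 in AGHMT-labelled cells), so its lower side was set in advance. The binding protein Crabp1 went from 233, 144 and 24.3 CPM in E to 1.31, 4.17 and 0.687 in GHMT and 0.845, 0.771 and 0.273 in AGHMT-labelled libraries (log2 -5.86 and -7.74, adjusted p 9.53e-05 and 8.8e-06). The receptor Rarb, itself a retinoic acid target, was at 0.935 ± 0.245 CPM in E, 2.46 ± 3.83 in GHMT and 15.4 ± 2.92 in AGHMT-labelled cells, where it passed (log2 4.04, SE 0.73, adjusted p = 0.000673, and 2.54, adjusted p = 0.0386, against GHMT).

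Upstream of Hox, the Cdx genes, which open the clusters in the tail bud, had at most 1 read in a group. Of the 2 tested genes of that list, Tgfbr1 was higher in GHMT (553 ± 65.8 against 76.6 ± 23.4 CPM in E, log2 2.85, SE 0.34, adjusted p = 2.02e-05) and in AGHMT-labelled cells (280 ± 44.0 CPM, log2 1.87, SE 0.33, adjusted p = 0.000561). Its ligand gene Gdf11, which sets the onset of posterior Hox genes, was lower in GHMT (log2 -3.23, SE 0.63, adjusted p = 0.000879) and not called in AGHMT-labelled cells (log2 -0.56, adjusted p = 0.402).

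Other position genes of limb and trunk, 17 of 23 tested, were 2 higher and 5 lower in GHMT, 0 higher and 2 lower in AGHMT-labelled cells, and 1 higher and 15 lower in CM, with medians of -0.26, -0.54 and -5.17. The shares in both sorted groups lay near or below those of all genes (19.8% higher and 32.9% lower in GHMT, 21.9% and 24.6% in AGHMT-labelled cells). In CM the share lower lay above the 22.5% of all genes, and the share higher below the 19.5%. Prrx1, a limb mesenchyme factor with the highest mean of that list over the 4 groups, was at 420, 506 and 647 CPM in E, 565, 528 and 504 in GHMT, 490, 412 and 488 in AGHMT-labelled and 84.3, 136 and 50.2 in CM libraries. The sorted libraries overlapped E and CM lay below all. Tbx15, a dorsal trunk factor, was at 95.7, 119 and 119 CPM in E, 1363, 308 and 449 in GHMT and 88.0, 69.4 and 71.8 in AGHMT-labelled libraries. It followed the order of Hoxc6 and Hoxc10, high in GHMT alone, with log2 2.67 (SE 0.46, adjusted p = 0.000358) against E and -3.21 (SE 0.47, adjusted p = 0.00101) for AGHMT-labelled against GHMT cells. En1, a limb and midbrain factor, did likewise (log2 2.15, adjusted p = 0.00714, and -2.13, adjusted p = 0.0236). Meox2, a somite and vascular factor, was without reads in GHMT and at 10.6 ± 0.936 CPM in E, 4.91 ± 0.911 in AGHMT-labelled and 20.2 ± 1.97 in CM cells, and its adjusted p was 8.71e-05 in GHMT against E. Prrx2, the paralog of Prrx1, had 1 read in GHMT and 1 in AGHMT-labelled cells and was lower in both (adjusted p 0.02 and 0.000452), and Lmx1b, the dorsal limb factor, was lower in AGHMT-labelled cells on 6 reads (log2 -3.16, adjusted p = 0.00705). Prrx2 and Lmx1b were read almost only in E (604 and 153 reads), so their lower side was set in advance. Tbx15 and En1, the 2 higher genes, were named after their values were seen.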

How the data were processed

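RNA was extracted with TRIzol and sequenced from stranded libraries, per the labels' protocols. The authors deposited a read count per Ensembl gene for each of 12 libraries, made with Bowtie2 2.0.6 and HTSeq on mm10, per the submitters' processing notes. Which annotation and strand setting were used is not given in the sources used here. A second deposited table, normalized signal (counts over DESeq size factors), served 1 alternative. Summary lines (no feature, 8.45% to 20.2% of reads, and ambiguous, 1.12% to 3.89%) were left out. Counts were tested with edgeR 4.0.16 (R 4.3.3; robust quasi-likelihood, TMM scaling, minimum count 10 and total 15, all 12 libraries in 1 fit), with Benjamini-Hochberg adjustment over 15059 genes and a threshold of 0.05, after a check on simulated data. DESeq2 1.42.0 and limma 3.58.1 (log2 of the deposited values plus 1) were alternatives, as were other scalings, filters, groups, thinning to 612458 reads, a GC correction, a replicate block and leaving out libraries. GHMT 1, CM 3 and E 1 were left out together as an alternative chosen after seeing the data. Replicate pairs of a group differed by more than sampling noise. Floors and intervals (95%, exact) cover counting error only, and the floor is 3 reads pooled over a group. Symbols and exon lengths came from GENCODE M21 (42548 of 43629 identifiers matched), and promoters from RefSeq.

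Members and lists were chosen with earlier results of these data known, and so was the rule for naming genes: values in every library for Hoxa10, for members with a mean of at least 5 CPM in a group and for those called with at least a 2-fold change, and from each list the gene with the highest mean and up to 2 called genes with the largest change in GHMT and AGHMT-labelled cells against E. A gene that this rule names is not reported here.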

Additional observations from a re-analysis of the deposited data

How the results depend on the processing

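Counts of Hox genes called moved with scaling, GC correction, thinning and limma on the deposited values. For GHMT against E, with 8 higher and 7 lower, total counts gave 1 and 12, TMM without mitochondrial genes 5 higher, limma 5 and 18, the 2 groups alone 5 higher, thinning to 1 depth 5 and 1, GC correction 17 and 1, and leaving out GHMT 1, CM 3 and E 1 4 lower. For AGHMT-labelled cells against E, with 2 and 4, DESeq2 size factors gave 1 higher, total counts 0 higher, limma 0 and 9, the 2 groups alone 5 higher, no filter 8 lower, thinning 1 and 1, and GC correction 9 higher. For AGHMT-labelled against GHMT cells, with 2 and 4, DESeq2 size factors gave 1 higher, total counts 5, TMM without mitochondrial genes 6, limma 10, the 2 groups alone 0, thinning 0 higher and 2 lower, GC correction 0 and 13, and DESeq2 7 lower. For CM against E, thinning left 12 lower of 29. Hoxa11 in GHMT turned to 0.66 on the log2 scale with GC correction. The replicate block, where numbers did not pair the libraries (2 of 18 same-numbered pairs had r above 0.1, range -0.72 to 0.13), gave 6 higher and 5 lower for GHMT, 1 higher for AGHMT-labelled cells against E and 1 higher against GHMT, and with GC correction 14 and 1, 8 and 2, and 0 and 9, and 0.61 for Hoxa11. Leaving out 1 library gave 3 to 8 higher and 5 to 10 lower for GHMT, 1 to 3 and 2 to 5 for AGHMT-labelled cells against E, 0 to 6 and 2 to 5 against GHMT, and 0 and 26 to 29 for CM. The median of all genes in GHMT against E was -1.06, and -2.38 with total counts, -1.51 with TMM without mitochondrial genes and 0.25 with GC correction, and the percent of calls that were higher went from 37.6% to 12%, 26.1% and 72.0%. Of 1368 values of called genes, 1206 kept their call, 160 lost it and 2 reversed; the cause was not tested. GHMT depth limits genes near its floor of 0.725 CPM.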
